A study of Mus musculus with 18 samples.

Results

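The genes described here belong to the Nodal and Activin branch of TGF-beta signalling, and their levels were followed while mouse induced pluripotent stem cells (iPSCs) were moved into medium with Activin A. The set holds 10 of the 45706 genes of the count table, found by their symbols: the ligand genes Nodal and Inhba, the co-receptor gene Tdgf1, the receptor gene Acvr2b, the nuclear partner gene Foxh1, and the inhibitor genes Lefty1, Lefty2, Cer1, Smad7 and Skil. Of these, 9 passed the filter on low counts, as did 16619 genes in all, and Cer1 did not.

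RNA was sequenced from 18 libraries in 6 groups of 3. The iPSCs were wild-type (wt) for Hmga2, which encodes a chromatin-binding HMG protein, or came from 1 of 2 Hmga2 knockout (KO) clones, KO#1 and KO#2. The wt cells also came from 1 clone, so a difference between lines cannot be told apart from a difference between clones. At 0 h all lines were iPSCs on inactivated fibroblast feeders in medium with serum, LIF and the inhibitors PD0325901 and CHIR-99021. At 24 h they were being induced into epiblast-like cells (EpiLCs) on Geltrex, without feeders, in medium with Activin A and bFGF, so the time effect cannot be told apart from the change of medium and the loss of feeders. The study's methods call the replicates independent biological ones and say no more of how they were separated, so p-values measure the spread between these libraries.

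Total counts ranged from 3466436 to 23872837 per library, and 3 counts, the level taken as detectable, corresponded to 0.116 to 0.984 CPM (counts relative to TMM-adjusted library totals). Protein-coding genes took between 41.3% and 84.7% of the counts of a library. This share followed the groups. At 24 h it was 41.3% to 63.4% in wt and KO#1, with TMM factors of 0.507 to 0.838, and 82.3% to 84.7% in KO#2, with factors of 1.31 to 1.45. Hmga2 was at 17.7 ± 4.53 CPM in wt, 5.50 ± 4.28 in KO#1 and 4.73 ± 3.25 in KO#2 at 0 h (mean ± SD, n = 3 each). At 24 h it was at 5.77 ± 0.226, 2.26 ± 1.40 and 5.65 ± 4.17 CPM. The 3 KO#2 libraries at 24 h held 10.5, 3.02 and 3.48 CPM of Hmga2 against 5.87, 5.51 and 5.93 CPM in wt, so replicate 1 lay above and the other 2 lay below every wt library. No difference was called there (log2 fold change -0.04, adjusted p = 0.966, and -0.82 to 0.27 with 1 library left out). The 6 KO#2 libraries are called the KO#2-labelled libraries below, with the short name KO#2 kept for single replicates. In the other 3 comparisons every KO library lay below every wt library. At 0 h Hmga2 was called lower in the KO#2-labelled libraries (-1.90, adjusted p = 0.0230, lost under 4 of 14 alternatives at up to 0.0863). In KO#1 the difference was not called at 0 h (-1.71, adjusted p = 0.124) or at 24 h (-1.36, adjusted p = 0.220). Without the filter on low counts both were called in KO#1 (adjusted p = 0.000524 and 0.0123), as was the former without KO#1 0 h replicate 1 (0.0437). The summed level of 5 pluripotency markers at 0 h was 2260 to 2890 CPM in wt, 2060 to 2550 in KO#1 and 1380 to 1450 in the KO#2-labelled libraries, and at 24 h it was 1840 to 2420, 1610 to 2210 and 1430 to 1570 CPM. That of 5 formative epiblast markers was 72.3 to 113 CPM at 0 h over all lines. At 24 h it was 740 to 1410 CPM in wt, 408 to 911 in KO#1 and 353 to 764 in the KO#2-labelled libraries, with medians of 876, 534 and 667 CPM. The summed level of 8 feeder fibroblast markers was 110 to 898 CPM at 0 h and 19.0 to 219 CPM at 24 h, and all 8 of them had more than 3 counts in every library at 24 h. In RNA from whole cultures, fewer cells of a type and less RNA per cell cannot be told apart.

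In this pathway Nodal or Activin binds a pair of receptor kinases that phosphorylate SMAD2 and SMAD3, which enter the nucleus with SMAD4 and, at many genes, with FOXH1. Nodal, unlike Activin, needs the co-receptor encoded by Tdgf1 (Cripto). The pathway induces several of its own inhibitors, among them the LEFTY proteins, which block Nodal and its co-receptor outside the cell, and SMAD7 and SKIL, which act on receptors and on nuclear SMADs. In the mouse epiblast Nodal maintains pluripotency and patterns the body axis, and Activin A stands in for it in cultures of primed pluripotent cells.

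The bases just upstream of 3 members are printed here because these genes are the ligands and the co-receptor through which the pathway is entered, and because their RNAs behaved differently: Inhba fell in all 3 lines, while Nodal and Tdgf1 were not called in any comparison with TMM scaling of all libraries. Each run holds the 250 bases before the gene start, 5' to 3' on the gene's strand, from RefSeq promoters on GRCm38.p6, with matches to the SMAD-binding letters CAGAC (or GTCTG on the other strand) in capitals.
Nodal, chr10:61417722-61417971, plus strand: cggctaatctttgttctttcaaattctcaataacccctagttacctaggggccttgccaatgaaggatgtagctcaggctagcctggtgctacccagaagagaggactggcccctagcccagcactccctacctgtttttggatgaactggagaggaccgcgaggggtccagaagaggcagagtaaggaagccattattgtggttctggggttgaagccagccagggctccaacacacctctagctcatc
Inhba, chr13:16011601-16011850, plus strand: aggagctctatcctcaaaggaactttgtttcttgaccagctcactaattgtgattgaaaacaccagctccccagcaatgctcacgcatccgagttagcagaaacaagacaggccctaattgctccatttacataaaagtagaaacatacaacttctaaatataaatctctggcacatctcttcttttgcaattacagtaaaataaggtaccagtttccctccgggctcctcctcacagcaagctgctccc
Tdgf1, chr9:110946159-110946408, minus strand: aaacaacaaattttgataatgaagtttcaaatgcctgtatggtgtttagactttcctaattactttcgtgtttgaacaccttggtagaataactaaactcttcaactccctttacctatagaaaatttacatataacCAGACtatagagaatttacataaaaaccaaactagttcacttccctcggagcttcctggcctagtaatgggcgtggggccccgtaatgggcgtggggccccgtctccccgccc
The Tdgf1 window held 1 match, and the windows of Nodal and Inhba held none. These letters occur in 42.2% of 32851 promoter windows of that length, so a match is a description of the sequence and not a binding site. The FOXH1 letters AATNCACA (or TGTGNATT) occur in 3.18% of the windows and in none of these 3.

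During the first 24 h of induction 6 of the 9 tested members changed in wt cells, while 5 did so in KO#1 and 4 in the KO#2-labelled libraries. Skil and Foxh1 rose in all 3 lines, though Foxh1 in KO#1 turned to -0.02 with library sizes alone, and Lefty2 and Inhba fell in all 3. Smad7 fell in wt and KO#1, and Acvr2b fell in wt, while its value in KO#1 was -0.97 and crossed the threshold under 3 of 14 alternatives. The ligand Nodal, the co-receptor Tdgf1 and Lefty1 were called in none of the 3 lines. Under alternatives, Tdgf1 in KO#1 was called with library sizes alone and Lefty1 without the filter on low counts in wt and under 4 of 14 alternatives in the KO#2-labelled libraries. In wt cells 2 members rose and 4 fell, where 26% of all genes tested were called higher and 24.7% lower (edgeR's quasi-likelihood test, Benjamini-Hochberg adjusted p under 0.05). In KO#1 the count was 2 higher and 3 lower against 20.1% and 20.6% of all genes, and in the KO#2-labelled libraries it was 2 higher and 2 lower against 12.7% and 13.3%. The median log2 fold change of the 9 members was -0.20, -0.38 and -0.09 in the 3 lines, beside 0.03, 0.00 and -0.03 for all genes.

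**Figure D1:**
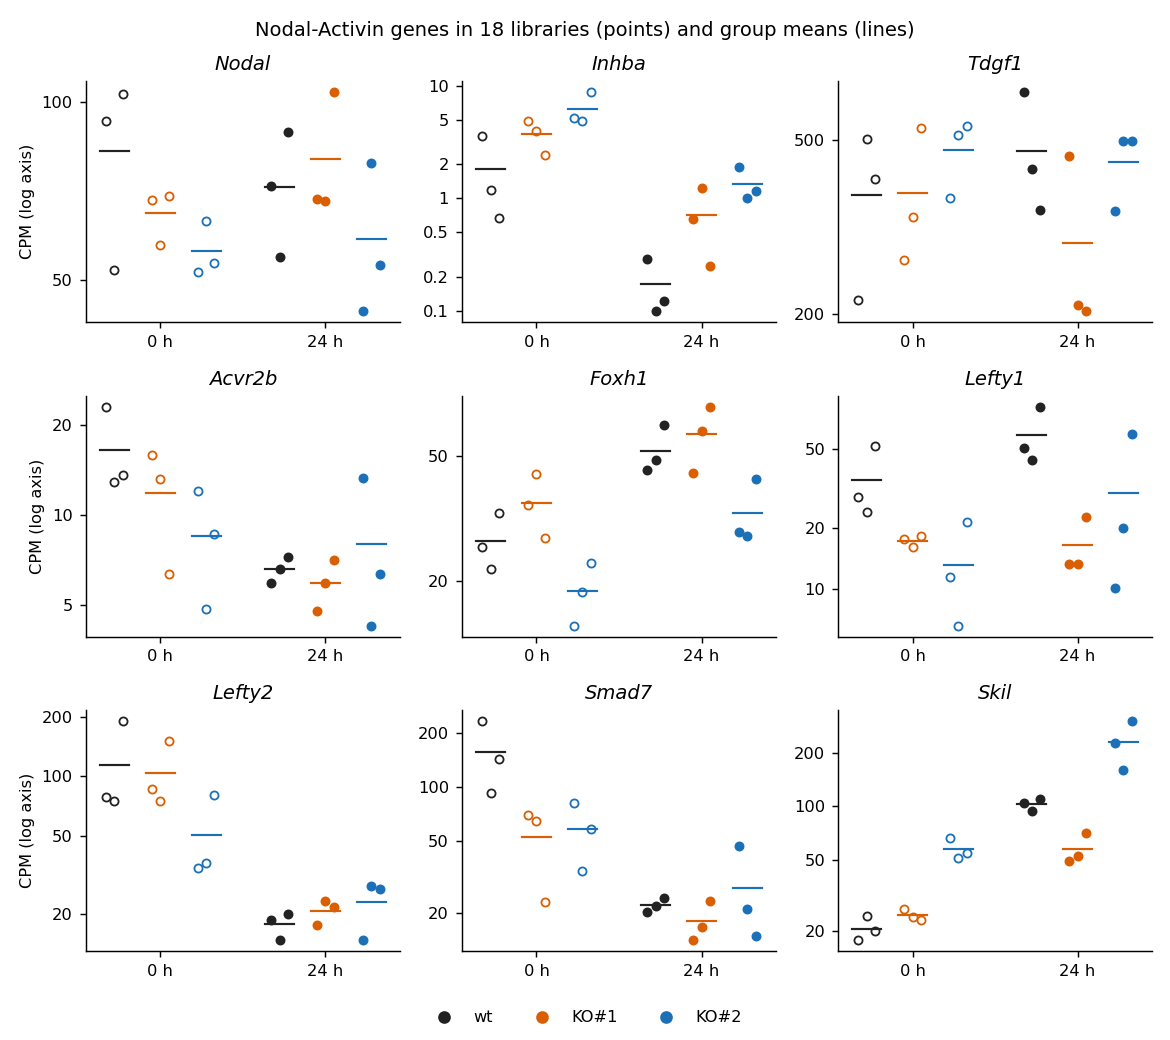
Level of 9 genes in each of the 18 libraries, in CPM on log axes, with open points for 0 h, filled points for 24 h and lines for group means. Skil lay between 17.7 and 66.8 CPM at 0 h and between 49.5 and 301 CPM at 24 h, while Nodal stayed between 44.3 and 104 CPM in all libraries.

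Nodal (chromosome 10, 61417972 to 61425338, GRCm38) encodes the ligand itself. Its levels in replicates 1, 2 and 3 were 92.8, 52.0 and 103 CPM in wt at 0 h and 72.0, 54.6 and 89.1 CPM at 24 h. In KO#1 they were 68.2, 57.4 and 69.4 CPM at 0 h and 68.6, 67.9 and 104 CPM at 24 h. In the KO#2-labelled libraries they were 51.6, 63.0 and 53.4 CPM at 0 h and 44.3, 78.9 and 53.0 CPM at 24 h. The 0 h and 24 h libraries overlapped in every line. The log2 fold change was -0.20 in wt (95% interval -0.79 to 0.39), 0.30 in KO#1 (-0.29 to 0.89) and 0.07 in the KO#2-labelled libraries (-0.51 to 0.65), with adjusted p-values of 0.568, 0.402 and 0.883. Between KO and wt cells the 4 values lay between -0.56 and 0.15, and the lowest adjusted p-value was 0.118, for the KO#2-labelled libraries at 0 h. The intervals leave room for changes of up to 0.89 on the log2 scale within a line. Leaving out wt 0 h replicate 2, the lowest wt library at 0 h, brought the difference of the KO#2-labelled libraries from wt at 0 h to -0.81 with an adjusted p-value of 0.0356, the lowest of a range that reached 0.880 over 14 alternatives.

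Inhba (chromosome 13, 16011851 to 16031621, GRCm38) encodes the beta-A subunit that dimerises into Activin A. It was the member with the fewest reads among those tested, with 8 to 13 counts per wt library at 0 h and 1 to 5 at 24 h. Its wt levels were 3.61, 1.19 and 0.667 CPM at 0 h and 0.293, 0.100 and 0.124 CPM at 24 h, and those in KO#1 were 4.82, 3.97 and 2.45 CPM and then 0.661, 1.23 and 0.249 CPM. The KO#2-labelled libraries held 5.12, 4.90 and 8.78 CPM at 0 h and 1.88, 1.01 and 1.17 CPM at 24 h. Every 24 h library lay below every 0 h library of its line. Inhba fell by 3.00 ± 0.73 on the log2 scale in wt cells (± SE here and below; adjusted p = 0.00272), by 2.43 ± 0.59 in KO#1 (adjusted p = 0.00377) and by 2.21 ± 0.52 in the KO#2-labelled libraries (adjusted p = 0.00479), and these calls held under all 13 alternatives that tested them in each line. Against wt it was higher in the KO#2-labelled libraries at 0 h (log2 fold change 2.04 ± 0.57, adjusted p = 0.0109) and at 24 h (2.83 ± 0.68, adjusted p = 0.00379), without overlap of the groups at either time. The 0 h call was lost without wt 0 h replicate 3 (1.56, adjusted p = 0.0678, in a range from 0.000609 over 13 alternatives). In KO#1 the difference from wt was 1.28 at 0 h and 1.85 at 24 h and was not called (adjusted p = 0.231 and 0.138).

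The summed level of the feeder markers also differed between times and lines. At 0 h it was 110 to 390 CPM in wt, 183 to 514 in KO#1 and 331 to 898 in the KO#2-labelled libraries, ranges that overlapped, with medians of 247, 378 and 360 CPM. At 24 h it was 19.0 to 34.6, 38.7 to 51.8 and 71.0 to 219 CPM in the same order. Both quantities were thus lower at 24 h in each line and highest in the KO#2-labelled libraries at 24 h. Of the 8 feeder markers, 7 had a lower mean at 24 h in each line. The exception was Dcn, which encodes the matrix proteoglycan decorin: its mean was 0 CPM in wt, 0.223 in KO#1 and 4.04 in the KO#2-labelled libraries at 0 h, and then 5.80, 1.34 and 7.18 CPM. The part of feeder RNA in the Inhba values was not tested. Reads of Inhba may also come from B230303A05Rik or Gm48444, which overlap it on the opposite strand, since the use of strand in counting was not given in the sources used here.

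Tdgf1 (chromosome 9, 110939603 to 110946158, GRCm38), the Cripto co-receptor gene, had the highest level of the set per kilobase of exon in all 6 groups, from 111 ± 55.7 to 180 ± 58.3 CPM per kb (n = 3). Its wt levels were 215, 502 and 406 CPM at 0 h and 642, 428 and 345 CPM at 24 h. In KO#1 they were 266, 333 and 531 CPM and then 459, 210 and 203 CPM, and in the KO#2-labelled libraries 368, 513 and 536 CPM and then 343, 495 and 496 CPM. Replicates of a group lay far apart, as in wt at 0 h, and the times overlapped in every line. The log2 fold change from 0 h to 24 h was 0.33 in wt (95% interval -0.46 to 1.12), -0.38 in KO#1 (-1.16 to 0.41) and -0.09 in the KO#2-labelled libraries (-0.87 to 0.70), with adjusted p-values of 0.473, 0.437 and 0.891. The largest difference from wt was -0.70 in KO#1 at 24 h (95% interval -1.49 to 0.09, adjusted p = 0.297). With library sizes alone Tdgf1 was called lower at 24 h in KO#1 (-1.21, adjusted p = 0.0207, in a range to 0.952 over 14 alternatives) and higher in the KO#2-labelled libraries than in wt at 24 h (0.96, adjusted p = 0.0465).

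Acvr2b (chromosome 9, 119402118 to 119434995, GRCm38) encodes a type II receptor for Activin and Nodal. In wt cells it went from 23.0, 12.9 and 13.6 CPM at 0 h to 5.93, 6.61 and 7.23 CPM at 24 h, with no overlap. It fell by 1.30 ± 0.43 on the log2 scale (adjusted p = 0.0170). The call was lost without wt 0 h replicate 1, its highest library (-1.04, adjusted p = 0.0664), and without wt 24 h replicate 1 (-1.24, adjusted p = 0.0519), and over 14 alternatives the adjusted p-value ranged from 0.00155 to 0.0664. In KO#1 the levels were 15.9, 13.2 and 6.36 CPM and then 4.78, 5.93 and 7.09 CPM, a log2 fold change of -0.97 with an adjusted p-value of 0.0749. That fall was called with library sizes alone (-1.75, adjusted p = 0.00353), without the filter on low counts (-0.95, adjusted p = 0.0315) and without KO#1 0 h replicate 3, its lowest library at 0 h (-1.29, adjusted p = 0.0234), in a range to 0.292 over 14 alternatives. In the KO#2-labelled libraries they were 12.0, 4.86 and 8.63 CPM and then 13.3, 4.26 and 6.34 CPM, a log2 fold change of -0.10 (adjusted p = 0.885). No difference between KO and wt cells was called for Acvr2b. Under alternatives, the KO#2-labelled libraries were called lower at 0 h without the filter (-0.89, adjusted p = 0.0443) and higher at 24 h with library sizes alone (1.31, adjusted p = 0.0145). Gm47320 overlaps it on the opposite strand.

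Foxh1 (chromosome 15, 76668225 to 76669948, GRCm38) encodes the forkhead partner of SMAD2 at Nodal-responsive genes. Its levels at 0 h were 25.6, 21.9 and 32.9 CPM in wt, 34.9, 43.8 and 27.5 CPM in KO#1 and 14.4, 18.5 and 22.9 CPM in the KO#2-labelled libraries. At 24 h they were 45.1, 48.6 and 62.7, then 44.2, 60.3 and 72.0, then 28.6, 27.9 and 42.4 CPM in the same order. Every 24 h library lay above every 0 h library of its own line. Foxh1 rose by 0.96 ± 0.27 on the log2 scale in wt (adjusted p = 0.00648), 0.74 ± 0.26 in KO#1 (adjusted p = 0.0320) and 0.83 ± 0.26 in the KO#2-labelled libraries (adjusted p = 0.0266). Scaling by library sizes alone, which shifts the median of all genes by -0.62 in wt, -0.79 in KO#1 and -0.03 in the KO#2-labelled libraries, ended all 3 calls (0.35, -0.02 and 0.78), so that in KO#1 the direction turned. In KO#1 the call was also lost with only the groups compared in the fit (0.75, adjusted p = 0.0543), without 0 h replicate 1 or 3 and without 24 h replicate 2 or 3 (highest adjusted p of these 0.131, range over 14 alternatives 0.0218 to 0.974), and in the KO#2-labelled libraries without 0 h replicate 1 or 2 and without 24 h replicate 3 (highest 0.156, lowest over 14 alternatives 0.0103). Against wt, Foxh1 in the KO#2-labelled libraries was at -0.66 ± 0.26 at 24 h without overlap but just missed the threshold (adjusted p = 0.0539, range 0.0251 to 0.380 over 14 alternatives). It was called there with DESeq2 (adjusted p = 0.0463), with only the groups compared in the fit (0.0273), with the replicate block (0.0282) and without KO#2 24 h replicate 3 (0.0251). With library sizes alone the direction turned (0.35, adjusted p = 0.380).

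**Figure D2:**
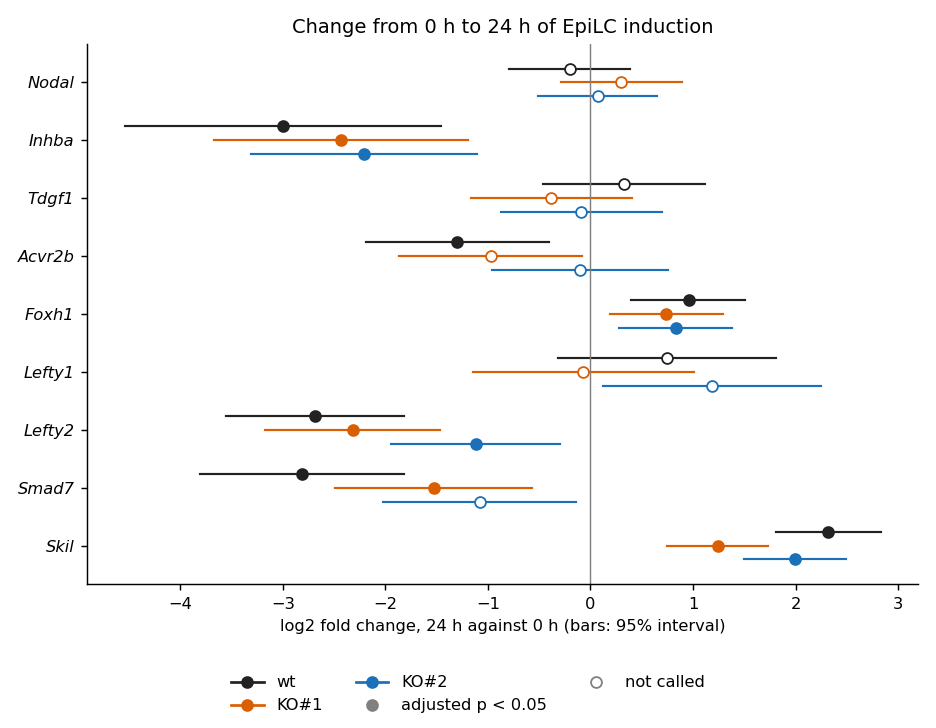
Log2 fold change from 0 h to 24 h with its 95% interval for 9 genes in wt, KO#1 and the KO#2-labelled libraries, with filled points for adjusted p under 0.05. Skil and Foxh1 lie to the right of 0 and Lefty2 and Inhba to the left in all 3 lines (Foxh1 in KO#1 at -0.02 with library sizes alone), while the intervals of Nodal and Tdgf1 cross 0 in each.

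Lefty1 and Lefty2 lie on the plus strand of chromosome 1 (180935022 to 180938400 and 180893108 to 180899103, GRCm38) and encode closely related secreted antagonists of Nodal. During induction Lefty2 fell in each line, while Lefty1 was called in no line. Lefty2 in wt went from 78.7, 74.5 and 190 CPM at 0 h to 18.7, 14.7 and 20.0 CPM at 24 h, and in KO#1 from 85.8, 74.5 and 150 CPM to 17.6, 23.2 and 21.6 CPM. In the KO#2-labelled libraries it went from 34.3, 36.4 and 80.0 CPM to 14.7, 27.6 and 26.8 CPM. Every 24 h library lay below every 0 h library of its line. Lefty2 fell by 2.69 ± 0.41 on the log2 scale in wt (adjusted p = 6.15e-05), by 2.32 ± 0.41 in KO#1 (adjusted p = 0.000344) and by 1.12 ± 0.39 in the KO#2-labelled libraries (adjusted p = 0.0415). The calls in wt and KO#1 held under all 14 alternatives. The call in the KO#2-labelled libraries was lost under 6 of 14, among them the fits without 0 h replicate 3 (-0.61, adjusted p = 0.289) and without 24 h replicate 1 (-0.88, adjusted p = 0.140), 2 or 3, in a range from 0.00215 to 0.289.

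The wt levels of Lefty1 were 28.5, 24.1 and 51.4 CPM at 0 h and 50.3, 44.0 and 81.0 CPM at 24 h. In KO#1 they were 17.6, 16.1 and 18.2 CPM and then 13.3, 13.3 and 22.8 CPM, and in the KO#2-labelled libraries 11.4, 6.52 and 21.4 CPM and then 10.1, 20.0 and 59.4 CPM. The times overlapped in every line, and the log2 fold changes were 0.75 in wt (95% interval -0.32 to 1.81), -0.07 in KO#1 (-1.15 to 1.01) and 1.19 in the KO#2-labelled libraries (0.12 to 2.25), with adjusted p-values of 0.226, 0.927 and 0.0930. The last of these was called without KO#2 0 h replicate 3 (1.74, adjusted p = 0.0376), without KO#2 24 h replicate 1 (1.60, adjusted p = 0.0203), with the replicate block (1.08, adjusted p = 0.0274) and without the filter on low counts (1.21, adjusted p = 0.00100), in a range to 0.812 over 14 alternatives.

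Compared with wt cells, Lefty1 was lower in KO#1 at 24 h and in the KO#2-labelled libraries at 0 h. In KO#1 at 24 h all 3 libraries lay below all 3 wt libraries, with a log2 fold change of -1.83 ± 0.52 (adjusted p = 0.0297). That call was lost without wt 24 h replicate 1 or 3 and without KO#1 24 h replicate 1 or 2 (adjusted p up to 0.129, lowest over 14 alternatives 3.67e-07). It was also lower in the KO#2-labelled libraries at 0 h (-1.41 ± 0.52, adjusted p = 0.0386, no overlap), a call that was lost without wt 0 h replicate 1 or 3, without KO#2 0 h replicate 1 or 2, with library sizes alone and with at least 10 counts in every library (adjusted p up to 0.184). At 24 h the same comparison gave -0.97 (adjusted p = 0.136), with replicate 3 of the KO#2-labelled libraries within the wt range. Without that library the value was -1.95 and was called (adjusted p = 0.00485, in a range up to 0.973). It was also called without the filter (-0.93, adjusted p = 0.0110) and with the replicate block (-1.16, adjusted p = 0.0136). Of the 4 comparisons with wt, Lefty2 was called in that of the KO#2-labelled libraries at 0 h (-1.19 ± 0.39, adjusted p = 0.0241), where the groups overlapped and the call was lost without wt 0 h replicate 3, its highest library (-0.61, adjusted p = 0.228), without KO#2 0 h replicate 1 or 2, or with library sizes alone. At 24 h library sizes alone called Lefty2 higher there (1.38, adjusted p = 0.0102).

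The ratio of Lefty1 to Lefty2 reads within a library does not depend on how libraries are scaled. The wt libraries had ratios of 0.364, 0.325 and 0.270 at 0 h and 2.69, 2.98 and 4.04 at 24 h. The KO#1 libraries had 0.206, 0.217 and 0.121 at first and 0.758, 0.574 and 1.05 after 24 h, and in the KO#2-labelled libraries 0.333, 0.180 and 0.268 and then 0.688, 0.725 and 2.21. Lefty2 had more reads than Lefty1 in all 9 libraries at 0 h, and Lefty1 had more than Lefty2 in all 3 wt libraries but only in 1 of 3 libraries of each KO group at 24 h. These read counts are not divided by gene length, and Lefty2 has the longer exons. Per kilobase of exon, Lefty1 and Lefty2 were at 33.2 ± 11.3 and 6.82 ± 1.05 CPM in wt at 24 h. In KO#1 they were at 9.36 ± 3.11 and 7.96 ± 1.11, and in the KO#2-labelled libraries at 17 ± 14.8 and 8.82 ± 2.75. The log2 ratio rose by 3.33 in wt, 2.14 in KO#1 and 2.04 in the KO#2-labelled libraries, each without overlap. At 24 h the log2 ratio was 1.67 ± 0.31 in wt, -0.38 ± 0.44 in KO#1 and 0.05 ± 0.95 in the KO#2-labelled libraries (mean ± SD, n = 3). The mean of the 6 KO libraries minus that of the 3 wt libraries was -1.84 at 24 h and -0.59 at 0 h. The KO libraries come from 2 clones and the wt libraries from 1. The ratio was chosen after the levels of both genes had been seen, so these values are given as a description, without a p-value. The longest transcripts of the pair share 173 stretches of 75 bases, which are 11.2% of those of Lefty1 and 7.21% of those of Lefty2, so some reads could be assigned to either gene, and their part in the ratio was not tested.

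**Figure D3:**
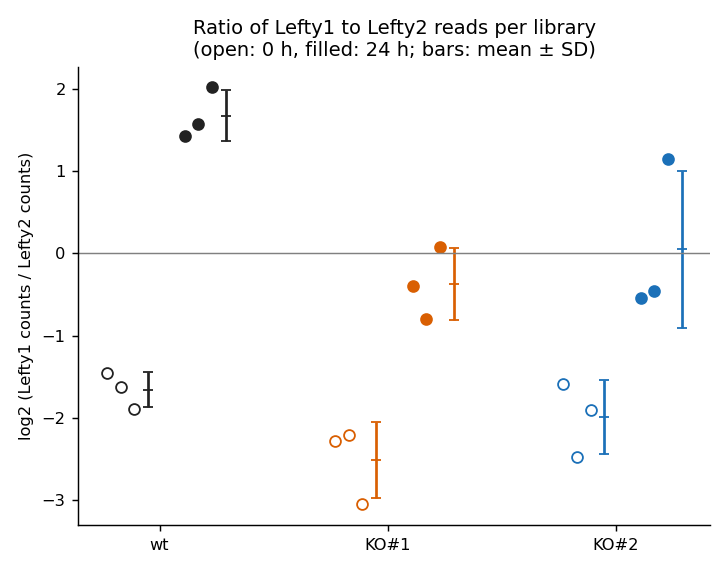
Log2 ratio of Lefty1 to Lefty2 counts in each library by line, with open points for 0 h, filled points for 24 h and bars for the mean and SD of 3 libraries. The wt libraries go from between -1.89 and -1.46 to between 1.43 and 2.02, and 5 of the 6 KO libraries at 24 h lie at 0.08 or below.

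Smad7 encodes an inhibitory SMAD that acts on the type I receptors of the TGF-beta family, and its gene is induced by signals of that family. Its wt levels were 232, 92.4 and 144 CPM at 0 h and 20.2, 21.8 and 24.3 CPM at 24 h. In KO#1 they were 70.1, 64.5 and 23.1 CPM and then 14.1, 16.8 and 23.4 CPM, and in the KO#2-labelled libraries 81.9, 34.4 and 58.6 CPM and then 46.9, 21.1 and 15.0 CPM. Among the 24 h libraries 8 of 9 held at most 24.3 CPM, and the exception was replicate 1 of the KO#2-labelled libraries. Smad7 fell by 2.81 ± 0.48 on the log2 scale in wt cells (adjusted p = 0.000141), a call that held under all 14 alternatives. It fell by 1.53 ± 0.46 in KO#1 (adjusted p = 0.0135), where the times overlapped, and that call was lost without KO#1 0 h replicate 1 or KO#1 24 h replicate 1 (adjusted p = 0.0677 and 0.0532, in a range from 9.22e-06). The value in the KO#2-labelled libraries was -1.08 ± 0.45 (adjusted p = 0.0840), and it was called without KO#2 24 h replicate 1 (-1.69, adjusted p = 0.0144) or KO#2 0 h replicate 2 (-1.34, adjusted p = 0.0476) and without the filter (-1.06, adjusted p = 0.00352), in a range to 0.324.

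At 0 h Smad7 was lower than in wt in both KO groups, without overlap. The log2 fold change was -1.57 ± 0.46 in KO#1 (adjusted p = 0.0442) and -1.41 ± 0.45 in the KO#2-labelled libraries (adjusted p = 0.0212), both against the same wt libraries. The call in KO#1 was lost in 8 of 14 alternatives, among them the fits without wt 0 h replicate 1 or 3 and without any 1 of the KO#1 0 h replicates (adjusted p up to 0.178, lowest 1.68e-05). The call in the KO#2-labelled libraries was lost without wt 0 h replicate 1, the highest library, without KO#2 0 h replicate 2 or 3, and with library sizes alone (adjusted p 0.0972, 0.0863, 0.0537 and 0.142, lowest 7.36e-05). At 24 h the differences were -0.29 and 0.32, with adjusted p-values of 0.798 and 0.598. Library sizes alone called the latter (1.38, adjusted p = 0.0142).

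Skil (chromosome 3, 31095058 to 31122577, GRCm38) encodes SnoN, a nuclear co-repressor that binds SMADs and is degraded and then re-induced when the pathway is active. In wt cells it went from 17.7, 24.1 and 19.9 CPM at 0 h to 105, 94.7 and 110 CPM at 24 h. In KO#1 it went from 26.5, 24.0 and 22.9 CPM to 49.5, 52.7 and 70.7 CPM, and in the KO#2-labelled libraries from 66.8, 51.5 and 54.7 CPM to 226, 161 and 301 CPM. Within each line the times did not overlap, and at 24 h the 3 lines did not overlap with each other, while at 0 h wt and KO#1 did. Skil rose by 2.32 ± 0.24 on the log2 scale in wt cells (adjusted p = 1.77e-06), by 1.24 ± 0.24 in KO#1 (adjusted p = 0.000645) and by 1.99 ± 0.24 in the KO#2-labelled libraries (adjusted p = 1.53e-05). The calls in wt and in the KO#2-labelled libraries held under all 14 alternatives, and that in KO#1 was lost with library sizes alone (0.48, adjusted p = 0.268, lowest 8.85e-07).

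The KO#2-labelled libraries held more Skil than wt at 0 h (1.48 ± 0.24, adjusted p = 0.000266) and at 24 h (1.15 ± 0.23, adjusted p = 0.000947), and both calls held under all 14 alternatives. KO#1 held less than wt at 24 h (-0.84 ± 0.23, adjusted p = 0.0246), in the opposite direction. That call was lost under 7 of 14 alternatives, namely without filter, with library sizes alone, and without any wt 24 h replicate or KO#1 24 h replicate 1 or 2, with adjusted p-values from 0.00302 to 0.166 and log2 fold changes from -0.98 to -0.71. The KO groups therefore lay on either side of wt at 24 h, and at 0 h KO#1 was at 0.24 (adjusted p = 0.624).

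**Figure D4:**
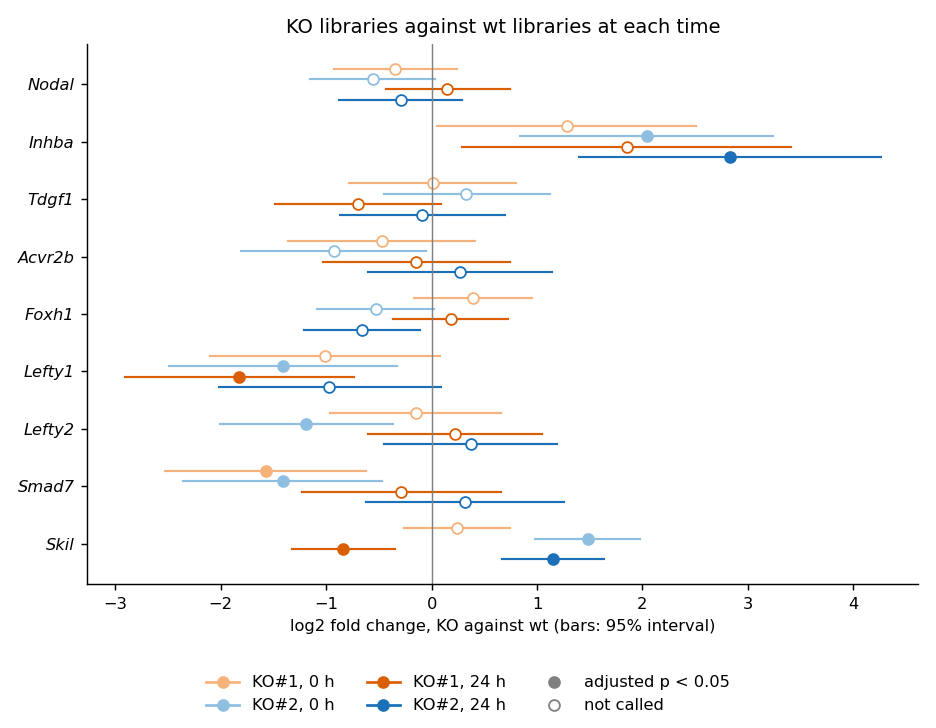
Log2 fold change of KO against wt libraries with its 95% interval for 9 genes, for KO#1 and the KO#2-labelled libraries at 0 h (pale) and 24 h (dark), with filled points for adjusted p under 0.05. Skil lies at 1.48 and 1.15 in the KO#2-labelled libraries and at -0.84 in KO#1 at 24 h, and Smad7 lies below 0 in both groups at 0 h but at -0.29 and 0.32 at 24 h.

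Over the whole set, 1 of 9 tested members differed between KO#1 and wt at 0 h (Smad7), where 6.67% of all genes were called, and 2 differed at 24 h (Skil and Lefty1), where 9.86% were. The count in the KO#2-labelled libraries was 5 at 0 h (Skil and Inhba higher, and Smad7, Lefty1 and Lefty2 lower), where 38.1% of all genes were called, and 2 at 24 h (Skil and Inhba), where 37.3% were. The sum of the pluripotency markers was lower in the KO#2-labelled libraries than in every wt library at both times, and their share of protein-coding counts was higher than in every wt library. With the fit on protein-coding genes the counts were again 5 and 2, and the part of these library differences in the other values was not tested. The median log2 fold change of the members was -0.15 and -0.15 in KO#1 and -0.56 and 0.27 in the KO#2-labelled libraries, beside 0.02, -0.02, 0.10 and 0.20 for all genes. These comparisons share the wt libraries.

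Whether the 24 h response itself differed from that of wt was tested as an interaction term. No member was called in KO#1, where 0.391% of all genes were, and none in the KO#2-labelled libraries, where 1.47% were. At an unadjusted p-value under 0.05 there were 1 member in KO#1 and 2 in the KO#2-labelled libraries, and DESeq2 called 0 and 1. The Skil response in KO#1 minus that in wt was -1.08 on the log2 scale (95% interval -1.77 to -0.39, adjusted p = 0.198). The same difference for the KO#2-labelled libraries was 1.56 for Lefty2 (0.40 to 2.72, adjusted p = 0.121) and 1.74 for Smad7 (0.41 to 3.06, adjusted p = 0.129). DESeq2 called the former (1.61, adjusted p = 0.0470, in a range from 0.00586 to 0.309 over 20 alternatives). Both were called with library sizes alone (adjusted p = 0.0465 and 0.0459) and without the filter (0.00586 and 0.00182).

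Cer1, which encodes the secreted Nodal and BMP antagonist Cerberus, a marker of anterior visceral endoderm, had 5 counts in all, in 3 of the 18 libraries, with at most 2 counts in any 1 of them. These were KO#1 24 h replicate 1 and replicates 1 and 3 of the KO#2-labelled libraries at 24 h. All values lay under the detectable level of 3 counts, so no fold was computed. The summed level of 7 primitive or visceral endoderm markers lay between 1.50 and 16.5 CPM.

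Per kilobase of exon, the order of the set in wt cells at 0 h was Tdgf1 (143 ± 55.6 CPM per kb), Lefty2 (43.8 ± 25.1), Nodal (39.5 ± 13.0), Smad7 (34.5 ± 15.6), Lefty1 (19.7 ± 8.32), Foxh1 (19.7 ± 4.11), Acvr2b (4.20 ± 1.43), Skil (2.12 ± 0.332) and Inhba (0.285 ± 0.245). The levels of Lefty2, Nodal and Smad7 lay within each other's SD, as did those of Lefty1 and Foxh1. At 24 h the order was Tdgf1 (180 ± 58.3), Foxh1 (38.2 ± 6.84), Nodal (34.3 ± 8.24), Lefty1 (33.2 ± 11.3), Skil (10.6 ± 0.784), Lefty2 (6.82 ± 1.05), Smad7 (4.89 ± 0.456), Acvr2b (1.68 ± 0.166) and Inhba (0.0270 ± 0.0165), and Foxh1, Nodal and Lefty1 did not differ beyond their SD. Lefty2 and Smad7 thus went from the upper to the lower part of the order, and Foxh1 and Skil rose in it.

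The genes whose log2 CPM followed the 3 members that were called in no line most closely, among 10138 compared over 18 libraries that share their lines and scaling, were Ivd, Narfl and Aldh4a1 for Nodal (Pearson's r of 0.806, 0.806 and 0.800). For Lefty1 they were Stoml1, 2410131K14Rik and Mettl7a1 (0.851, 0.850 and 0.848), and for Tdgf1 Stx12, Mzt1 and AI597479 (0.910, 0.892 and 0.854). These are descriptions of the 18 libraries, without a test.

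A list of 36 further genes of the pathway was examined, of which 30 were tested. In wt cells 6 rose and 14 fell during the 24 h, in KO#1 3 and 14, and in the KO#2-labelled libraries 6 and 7. These are 66.7%, 56.7% and 43.3% of the tested genes of the list, where 50.7%, 40.8% and 26% of all genes were called in either direction. The median log2 fold change of the list was -0.55, -0.61 and -0.16, beside 0.03, 0.00 and -0.03 for all genes. The genes that rose furthest in wt included Gdf1, a ligand that pairs with Nodal and shares a transcript with Cers1, which had at most 3 counts per library at 0 h and 42 to 105 at 24 h, when it was at 3.75, 4.21 and 6.49 CPM. Next came Smad2, the signal transducer (0.98 ± 0.24, adjusted p = 0.00280), Trim33, a ubiquitin ligase that binds SMADs (0.93 ± 0.24, adjusted p = 0.00400), and Ppm1a, a phosphatase of SMAD2 and SMAD3 (0.70 ± 0.22, adjusted p = 0.0128). The calls of these 3 genes were lost with library sizes alone (0.34, 0.33 and 0.09), and that of Ppm1a also without the filter (adjusted p = 0.0501) and without wt 24 h replicate 3 (0.62, adjusted p = 0.0509, in a range from 0.00291 to 0.842).

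Among the genes that fell, the Activin beta-B subunit gene Inhbb fell by 3.54 ± 0.52 on the log2 scale in wt (adjusted p = 4.03e-05). The type I receptor gene Acvr1b fell by 3.04 ± 0.35 (adjusted p = 4.81e-06), from 72.5, 42.0 and 56.0 CPM to 4.81, 5.41 and 10.3 CPM, and Furin, a convertase that cleaves the Nodal precursor, by 2.84 ± 0.49 (adjusted p = 0.000164). These 3 calls held under all alternatives that tested them. Gsc, the streak and organizer gene Goosecoid, had 8, 3 and 10 counts in the wt libraries at 0 h (2.62, 0.275 and 0.834 CPM) and 2, 1 and 0 at 24 h, too few for a fold. Its call was lost without wt 0 h replicate 1 or wt 24 h replicate 3 (adjusted p = 0.0633 and 0.0528, lowest 0.000347).

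**Figure D5:**
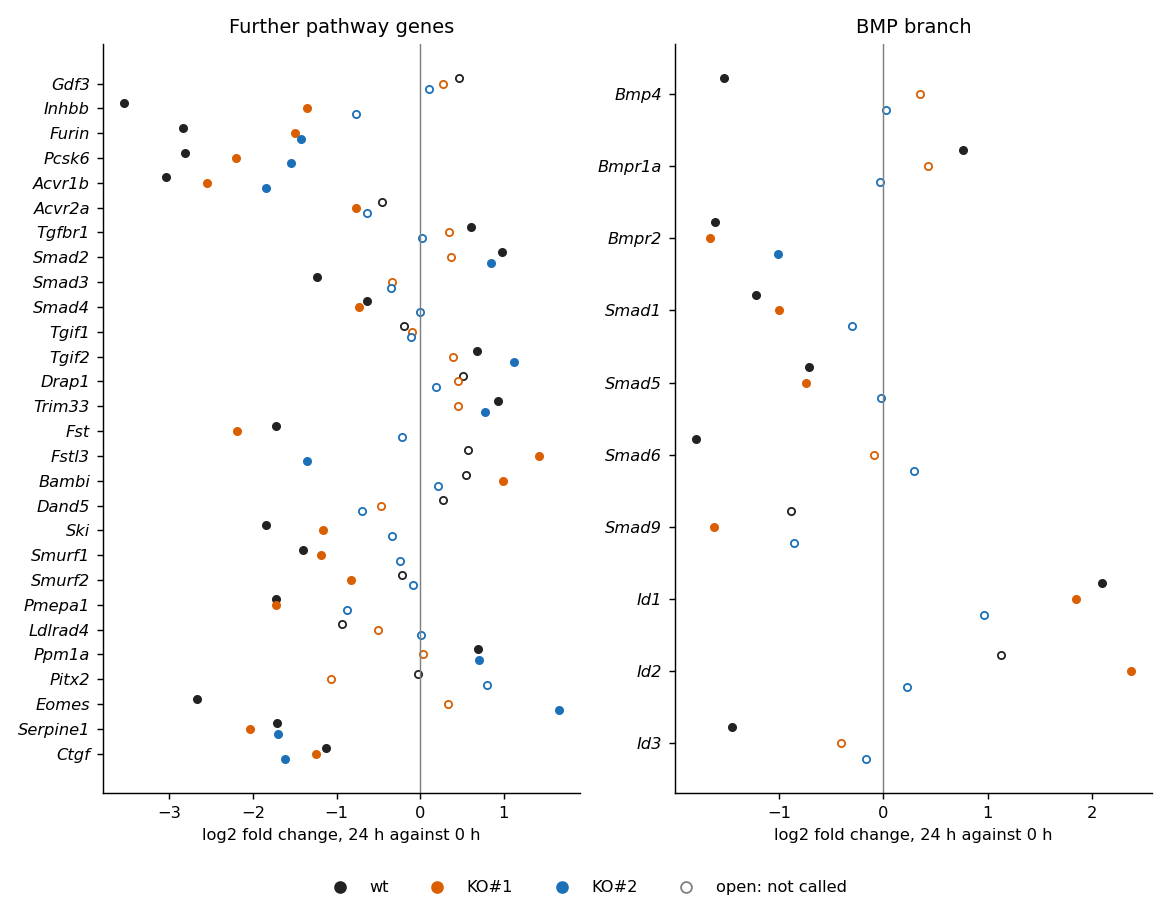
Log2 fold change from 0 h to 24 h of 28 further pathway genes (left) and 10 genes of the BMP branch (right) in wt, KO#1 and the KO#2-labelled libraries, with filled points for adjusted p under 0.05. Gdf1 and Gsc are left out because a group held at most 3 counts in each library, and Acvr1b lies furthest from 0 among the genes that fell in all 3 lines.

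In the same list, 1 gene differed between KO#1 and wt at 0 h and 3 at 24 h, and 12 and 12 in the KO#2-labelled libraries. The shares were 3.33% and 10% in KO#1 and 40% at each time in the KO#2-labelled libraries, close to the 6.67%, 9.86%, 38.1% and 37.3% of all genes. Ldlrad4, an inhibitor of SMAD activation, was lower in KO#1 at 0 h (-2.40 ± 0.65, adjusted p = 0.0311), a call lost under 7 of 13 alternatives, among them the fits without any 1 of the wt 0 h replicates and without KO#1 0 h replicate 2 or 3 (adjusted p from 0.00337 to 0.146). Eomes, a T-box gene of the primitive streak and a direct target of Nodal signalling, was higher than in wt at 24 h in KO#1 (2.26 ± 0.36, adjusted p = 0.000362) and in the KO#2-labelled libraries (2.45 ± 0.35, adjusted p = 7.39e-05), and lower in the latter at 0 h (-1.87 ± 0.34, adjusted p = 0.000709). Its levels in wt went from 15.4, 6.79 and 12.0 CPM at 0 h to 1.88, 1.70 and 1.67 CPM at 24 h. In KO#1 it was at 6.52, 6.89 and 6.77 CPM and then 5.22, 8.38 and 11.7 CPM, and in the KO#2-labelled libraries at 4.06, 2.56 and 2.49 CPM and then 10.1, 11.3 and 7.43 CPM. All KO libraries lay above all wt libraries at 24 h. The 3 calls held under all 14 alternatives. The endoderm markers, which Eomes is not among, were at 1.50 to 1.76 CPM in wt, 4.09 to 6.17 in KO#1 and 9.17 to 16.5 in the KO#2-labelled libraries at 24 h, and their part in the Eomes values was not tested.

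The other genes named by the same rule were inhibitors, receptors and ligands. KO#1 at 24 h held more Fstl3, a follistatin-like Activin antagonist (1.27 ± 0.39, adjusted p = 0.0462), and less Trim33 (-1.04 ± 0.24, adjusted p = 0.00844). The call of Fstl3 was lost under 8 of 13 alternatives, among them the fits without any wt 24 h replicate or KO#1 24 h replicate 2 or 3 (adjusted p from 0.0281 to 0.184). With the replicate block, whose numbers were taken to pair the libraries of this comparison, Fstl3 was at 1.24 with an adjusted p-value of 0.0508. The call of Trim33 was lost with library sizes alone and without wt 24 h replicate 3 or KO#1 24 h replicate 1 or 2 (adjusted p up to 0.0784, lowest 8.40e-05). The KO#2-labelled libraries held more Fstl3 (1.93 ± 0.44, adjusted p = 0.00297) and Tgfbr1, a type I receptor (1.38 ± 0.24, adjusted p = 0.000488), and less Fst, which encodes the Activin antagonist follistatin (-2.05 ± 0.49, adjusted p = 0.00449), at 0 h. At 24 h they held more Inhbb (3.28 ± 0.50, adjusted p = 0.000122) and less Gdf1 (-2.51 ± 0.73, adjusted p = 0.0160) and Dand5, a further Nodal antagonist (-1.60 ± 0.40, adjusted p = 0.00478). The call of Gdf1 was lost with library sizes alone and without wt 24 h replicate 3 or KO#2 24 h replicate 2 (adjusted p up to 0.0670, lowest 6.88e-05), and that of Dand5 with library sizes alone (adjusted p = 0.321, lowest 0.00242). In the test of the response 1 of the 30 genes was called in KO#1 (Eomes), or 3.33% against 0.391% of all genes, and 2 in the KO#2-labelled libraries (Eomes and Inhbb), or 6.67% against 1.47%.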

How the data were processed

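The authors deposited counts, whole and not normalized, of the reads assigned to each of 45706 genes in 18 libraries. According to the study's methods, stranded total RNA libraries were sequenced as paired ends, trimmed, cleared of ribosomal sequence and aligned to GRCm38 with STAR. The methods name both Salmon and StringTie for quantification, and the annotation release was not given in the sources used here. Gene positions came from GENCODE M21, which holds 45143 of the identifiers, and promoter sequences from RefSeq (GRCm38.p6), where 5 of the 10 members had an entry.

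Counts were analysed in R 4.3.3 with edgeR 4.0.16. Genes were kept by filterByExpr (minimum count 10), libraries were scaled by TMM, and 1 quasi-likelihood model of the 6 groups was fitted to 18 libraries, with Benjamini-Hochberg adjustment over all 16619 genes tested and a threshold of 0.05. Standard errors were derived from the F statistic of each test. CPM used the TMM-scaled totals, log2 CPM a prior count of 2, and CPM per kb the union of exons. The fit was tested on simulated data. The lines were compared over time (24 h against 0 h), with wt at both times, and in their responses by an interaction term.

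All 10 members are named. From each further list up to 4 genes with the largest called rise and fall are named in wt. Up to 2 each way are named in the comparisons of KO with wt and in those of the responses. The members and lists were chosen with earlier results of these data known. Alternatives were DESeq2 1.42.0, its size factors, unscaled library sizes, no filter, a minimum of 10 counts per library, a fit of the compared groups alone, a replicate block, a threshold of 0.01, a minimum absolute log2 fold change of 1, and each library left out. A fit on protein-coding genes and the ratio of Lefty1 to Lefty2 (counts plus 0.5) were added after seeing the data. The 95% intervals come from the fit and hold the spread between libraries, while the level of 3 counts covers counting error only, and without molecular identifiers reads are not independent molecules. Replicate numbers are shared between groups. In KO#1 against wt at 24 h the deviations of same-numbered libraries from their group means correlated at 0.48, 0.223 and 0.587, all over 0.1, so the numbers were taken to pair these samples, from the data alone. In the other 6 comparisons at least 1 pair did not reach 0.1. The ChIP-seq and Hi-C data of the study were not used here. Figures were drawn with Python 3.11.15 and matplotlib 3.10.9.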

Additional observations from a re-analysis of the deposited data

Results flagged for a closer look

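A difference in the 24 h response between a KO clone and wt, tested as an interaction term with edgeR's quasi-likelihood test, was found for 2 genes of the pathway outside the 10 members. The response of Eomes, the T-box gene of the primitive streak, was higher than in wt by 3.00 ± 0.49 on the log2 scale in KO#1 (adjusted p = 0.0139) and by 4.33 ± 0.49 in the KO#2-labelled libraries (adjusted p = 0.000437), and both comparisons use the same wt libraries. Within lines, Eomes changed by -2.67 in wt (called), 0.33 in KO#1 (not called) and 1.66 in the KO#2-labelled libraries (called). The difference in KO#1 lost its call with library sizes alone (2.85, adjusted p = 0.0731) and without wt 24 h replicate 1 or 2 (adjusted p = 0.0538 and 0.0557), in a range from 3.74e-06 over 20 alternatives, and that in the KO#2-labelled libraries held under all 20.

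The response of Inhbb, the Activin beta-B subunit gene, differed from wt by 2.77 ± 0.66 in the KO#2-labelled libraries (adjusted p = 0.0426), where it was at 17.3, 13.1 and 15.2 CPM at 0 h and at 9.82, 13.8 and 3.08 CPM at 24 h. In wt it went from 18.4, 6.89 and 8.09 CPM to 1.35, 0.801 and 0.556 CPM. That call was lost under 11 of 19 alternatives, namely without wt 0 h replicate 1 or 3, any 1 of the 3 wt 24 h replicates, any 1 of the 3 KO#2-labelled libraries at 0 h, or 24 h replicate 1 or 2 of the latter, and with only the groups compared in the fit, with adjusted p-values from 5.32e-05 to 0.116.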

How the results depend on the processing

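The 9 tested members in 9 comparisons gave 1232 alternative values, of which 1105 kept direction and side of the threshold, 85 changed the call and 42 changed sign. The causes of these changes were not tested. Scaling by library sizes alone moved the counts most: members called fell to 2 in the KO#2-labelled libraries at 24 h against 0 h, 0 in KO#1 against wt at 0 h, 2 in the KO#2-labelled libraries against wt at 0 h and 1 in KO#1 against wt at 24 h, and rose to 6 in the KO#2-labelled libraries against wt at 24 h, where 10208 of 16619 genes (61.4%) were called, and 2 in their response. It shifts the median of all genes by 0.45 and 1.04 in the KO#2-labelled libraries against wt at 0 h and 24 h. At a threshold of 0.01 the counts were 3 in KO#1 and 2 in the KO#2-labelled libraries at 24 h against 0 h, 0 and 1 against wt at 0 h, and 0 in KO#1 against wt at 24 h. With at least 10 counts in every library, which removes Inhba, they were 0 and 3 against wt at 0 h and 1 in the KO#2-labelled libraries at 24 h. Without filter they were 7, 6 and 6 at 24 h against 0 h in wt, KO#1 and the KO#2-labelled libraries, 2 and 6 against wt at 0 h, 1 and 3 at 24 h, and 0 and 2 in the responses, where DESeq2 gave 1 in the KO#2-labelled libraries. Only the groups compared gave 0 in KO#1 at 0 h, and a minimum absolute log2 fold change of 1 gave 1 at 24 h. Leaving out 1 library gave 3 to 5 members in KO#1 and 2 to 5 in the KO#2-labelled libraries at 24 h against 0 h, 0 to 1 and 2 to 6 against wt at 0 h, and 0 to 2 and 2 to 4 against wt at 24 h.

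Over the 7 comparisons the deviations of same-numbered libraries correlated at 0.0531 on average (-0.207 to 0.587, over 0.1 in 10 of 21 pairs), and 11 of 18 libraries correlated best with their own number. In KO#1 against wt at 24 h, where the numbers were taken to pair the samples, the block kept the calls of Skil and Lefty1 and ended that of Fstl3. Elsewhere, where they share only a number, with the replicate block 4 members were called in the KO#2-labelled libraries against wt at 24 h, with Lefty1 (-1.16, adjusted p = 0.0136) and Foxh1 (-0.67, adjusted p = 0.0282) added, and 5 in these libraries at 24 h against 0 h, with Lefty1 added (1.08, adjusted p = 0.0274). The block also ended the calls of Bmp4 in wt over time (adjusted p = 0.0572) and of Id2 and Smad9 in the KO#2-labelled libraries against wt at 0 h (0.0719 and 0.0531), and changed no other call of a gene named here.

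Values that changed sign with library sizes alone were Tdgf1 in wt (-0.33), Nodal (-0.45) and Foxh1 (-0.02) in KO#1 at 24 h against 0 h, Nodal (0.71), Tdgf1 (0.96), Foxh1 (0.35) and Hmga2 (1.01) in the KO#2-labelled libraries against wt at 24 h, and Tdgf1 (0.21), Skil (0.24) and Foxh1 (0.43) in their response. Tdgf1 in KO#1 against wt at 0 h was -0.02 with DESeq2 and with its size factors, -0.01 with protein-coding genes and 0.00 with at least 10 counts. The last setting gave -0.05 for Nodal in the KO#2-labelled libraries at 24 h against 0 h, and 0.05 for Tdgf1 and 0.11 for Hmga2 against wt at 24 h, where protein-coding genes gave 0.01 and 0.03. Leaving out 1 library turned the sign within a line of Nodal in wt (-0.45 to 0.00), Lefty1 in KO#1 (-0.39 to 0.05), and Nodal (-0.20 to 0.24), Tdgf1 (-0.24 to 0.07) and Acvr2b (-0.68 to 0.23) in the KO#2-labelled libraries. Against wt it did so for Lefty2 (-0.52 to 0.44) and Tdgf1 (-0.32 to 0.28) in KO#1 at 0 h, Nodal (-0.05 to 0.39) and Acvr2b (-0.27 to 0.02) in KO#1 at 24 h, and Tdgf1 (-0.24 to 0.19), Smad7 (-0.29 to 0.63), Acvr2b (-0.31 to 0.57) and Hmga2 (-0.82 to 0.27) in the KO#2-labelled libraries at 24 h. In the responses it did so for Lefty2 (-0.22 to 0.74) and Inhba (-0.11 to 1.21) in KO#1, and Nodal (0.00 to 0.52), Lefty1 (-0.53 to 0.99) and Foxh1 (-0.35 to 0.07) in the KO#2-labelled libraries. None of these values was called in the full fit apart from Foxh1 in KO#1. Among the tested members depth limits Inhba most, with 1 to 5 counts per wt library at 24 h, and Cer1 lay under the detectable level in all 18 libraries.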

Other observations

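The neighbouring BMP branch, which signals through SMAD1, SMAD5 and SMAD9 and shares SMAD4 with the Nodal branch, was examined as a list of 10 genes, all of them tested. In wt cells 2 rose and 6 fell during the 24 h, in KO#1 2 rose and 4 fell, and in the KO#2-labelled libraries 1 fell. These are 80%, 60% and 10% of the list, where 50.7%, 40.8% and 26% of all genes were called. Id1, a direct target of BMP signalling, rose in wt from 4.59, 3.76 and 2.17 CPM to 10.3, 14.4 and 18 CPM (log2 fold change 2.09 ± 0.49, adjusted p = 0.00212). The type I receptor gene Bmpr1a rose by 0.76 ± 0.27 (adjusted p = 0.0246), a call lost with library sizes alone and without wt 0 h replicate 1 or 3 or wt 24 h replicate 1 (adjusted p from 0.00998 to 0.787). Among the falls were the inhibitor gene Smad6 (-1.79 ± 0.55, adjusted p = 0.0116, lost without wt 0 h replicate 1 at 0.101, lowest 0.000740), the type II receptor gene Bmpr2 (-1.61 ± 0.35, adjusted p = 0.00121), the target gene Id3 (-1.45 ± 0.39, adjusted p = 0.00531) and the ligand gene Bmp4 (-1.53 ± 0.59, adjusted p = 0.0388). The call of Bmp4 was lost without wt 0 h replicate 1 or 3, without wt 24 h replicate 1 or 2 and with the replicate block (adjusted p from 0.00272 to 0.216).

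Bmp4 was the gene of this branch that was higher than wt at 24 h in both KO groups. At 0 h it lay between 1.29 and 4.09 CPM in wt, 7.12 and 11.2 in KO#1 and 4.88 and 12.5 in the KO#2-labelled libraries. At 24 h it was at 1.17, 0.601 and 1.24 CPM in wt, at 11.5, 11.7 and 13.1 CPM in KO#1 and at 7.84, 12.7 and 2.39 CPM in the KO#2-labelled libraries. Neither KO group overlapped with wt at either time. The endoderm and feeder marker sums given above were also higher in both KO groups than in wt at 24 h, and their part in the Bmp4 values was not tested. The log2 fold change of Bmp4 at 24 h was 3.54 ± 0.57 in KO#1 (adjusted p = 0.000476) and 2.88 ± 0.56 in the KO#2-labelled libraries (adjusted p = 0.000778), and both calls held under all 13 alternatives. In KO#1 it was the 1 gene of the 10 called at 24 h (10% against 9.86% of all genes), where 3 had an unadjusted p under 0.05, and at 0 h edgeR called 0, with 3 at an unadjusted p under 0.05. In the KO#2-labelled libraries at 24 h, 5 of 10 were called (50% against 37.3% of all genes): 4 genes were higher, among them Bmpr2 (1.89 ± 0.35, adjusted p = 0.000482), and Id1 was lower (-1.36 ± 0.45, adjusted p = 0.0241, range 0.00106 to 0.593). That call was lost with library sizes alone and without wt 24 h replicate 2 or 3 or KO#2 24 h replicate 1 or 3. At 0 h 6 of 10 were called there (60% against 38.1%), 4 higher and 2 lower. They included the target gene Id2 (1.70 ± 0.65, adjusted p = 0.0465, groups overlapping) and the signal transducer gene Smad9 (1.32 ± 0.51, adjusted p = 0.0483), whose calls were lost under 7 and 10 of 13 alternatives (adjusted p from 2.02e-05 to 0.199 and from 0.0247 to 0.130), most of them fits without 1 library. Id3 was lower (-1.51 ± 0.39, adjusted p = 0.00665, groups overlapping), as was Smad1 (-0.87 ± 0.23, adjusted p = 0.00883). Both calls were lost with library sizes alone (-1.02 and -0.39, adjusted p = 0.0620 and 0.411), and that of Smad1 also without filter (adjusted p = 0.0555).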
